A study of Mus musculus with 8 samples.

Results

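The messages of 10 cytoskeleton genes were followed in mouse liver: the keratins Krt8, Krt18 and Krt23, vimentin (Vim), the tubulins Tuba1a, Tubb2a, Tubb2b and Tubb6, cytoplasmic gamma-actin (Actg1) and the actin-binding thymosin Tmsb10. They were read by symbol from a table of 55385 gene identifiers, and all 10 were found. Liver RNA came from 8 male mice, 4 Usp39-HKO and 4 littermates as controls, all 5 weeks old and fasted for 16 h, with a separate library for each mouse. Usp39-HKO mice carry loxP-flanked (fl/fl) Usp39 alleles on a C57BL/6J background and an Albumin-Cre transgene, which is active in hepatocytes. The study describes the deletion as hepatocyte-specific, and whether other cells of the liver keep an intact gene was not tested here. The control mice are labelled wild type. The comparison asks how loss of Usp39, a protein of the splicing machinery, from hepatocytes changed the RNA of the liver.

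The cytoskeleton has 3 filament systems. Intermediate filaments are built from keratin pairs in epithelial cells, where Krt8 and Krt18 form the only prominent pair of hepatocytes, and from vimentin in mesenchymal cells such as stellate cells and fibroblasts. Microtubules are polymers of alpha- and beta-tubulin dimers, and cells adjust tubulin messages to the pool of free dimers: Ttc5 reads the first residues of a nascent tubulin chain and starts the decay of its message. Actin filaments assemble from actin monomers, which thymosins such as Tmsb10 and Tmsb4x hold in reserve. Keratin messages are known to rise in injured liver.

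All values below come from counts on whole genes. Counts summed to between 8589636 and 10418450 per mouse, where a floor of 3 counts corresponds to between 0.288 and 0.349 CPM. FPKM (counts scaled to the exon length of the gene and to the total of the mouse) compares levels between genes. Usp39 itself had between 8.76 and 10.4 FPKM in controls and between 8.07 and 8.70 in Usp39-HKO mice, without overlap (log2 fold change -0.41 ± 0.11, SE, adjusted p = 0.0212 in edgeR). The adjusted p was 0.0615 without A474 and 0.0547 without A475, and without scaling factors between mice the log2 fold change was -0.18 (adjusted p = 0.241). With limma on log2(FPKM + 1) it was -0.16 (adjusted p = 0.168). The count covers all exons, of which the Cre removes a single one, and all cell types. Control mouse A475 carried RNA of pancreatic acinar genes, whose 13 listed markers summed to 818 FPKM there and to between 2.92 and 5.86 in the other mice.

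**Figure D1:**
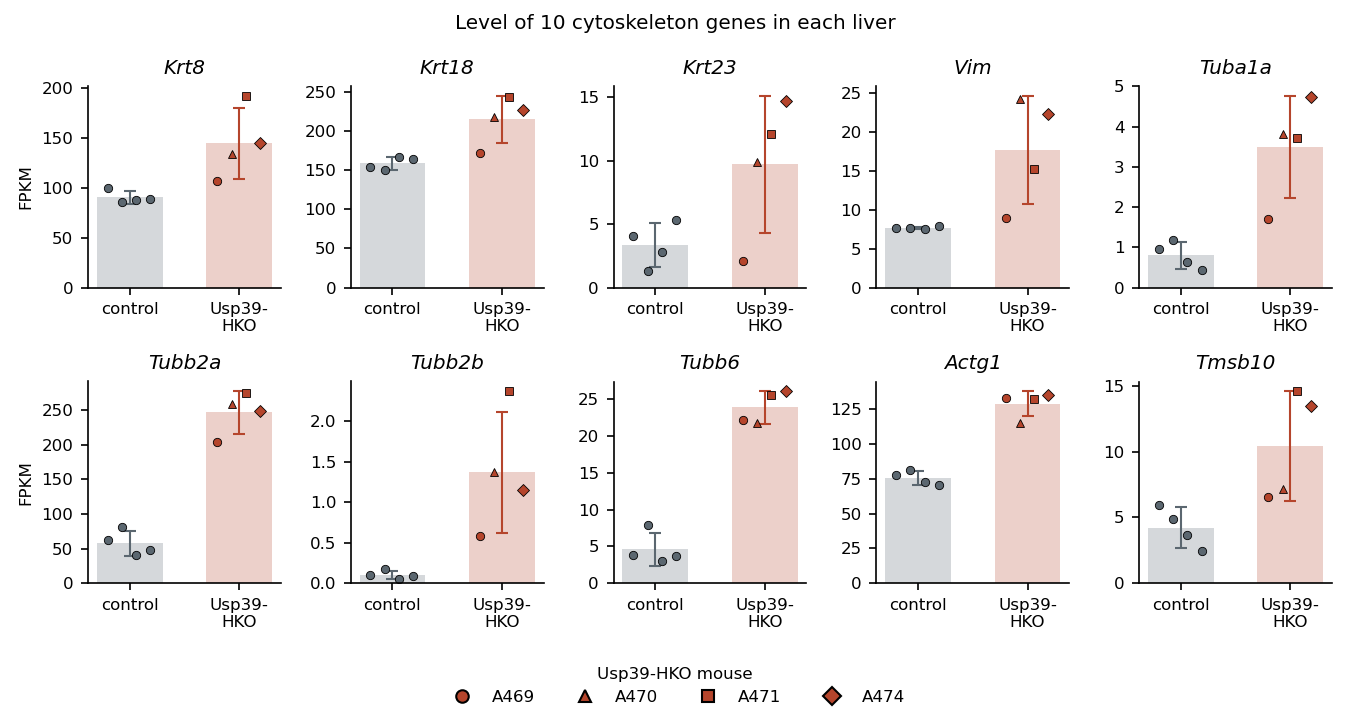
FPKM of each of the 10 genes, with a panel for each gene and its own linear axis from 0; points are mice, bars are the mean of 4 mice and error bars the SD, and the symbols tell the 4 Usp39-HKO mice apart. Usp39-HKO points lie above all control points in every panel except Krt23, where mouse A469, at 2.10 FPKM, lies among the controls.

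The tubulins among these genes are near copies of each other, which is why their sequence is shown before their values. The first 30 coding bases carry the codons for the residues that Ttc5 reads, here the first 4 codons in capitals. Sequences were taken from GENCODE vM21 transcripts on GRCm38. Those of Tubb2a (chr13:34077900-34077929) and Tubb2b (chr13:34130204-34130233) lie on the minus strand and are unbroken in the genome. That of Tuba1a, also on the minus strand, spans an intron between 98951665 and 98953453 on chromosome 15.
Tuba1a: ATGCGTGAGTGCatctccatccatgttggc
Tubb2a: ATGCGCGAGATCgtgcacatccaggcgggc
Tubb2b: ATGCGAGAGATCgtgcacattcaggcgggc

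Tubb2a and Tubb2b are neighbouring genes whose coding sequences, without the stop codon, have 1335 bases each, of which 47 differ (96.5% identity), and the longest stretch without a difference runs over 551 bases. Beta-tubulins as a family differ most at their carboxyl terminus, so the last 60 coding bases are shown, with the 3 bases that differ in capitals. The stretches lie at chr13:34074471-34074530 (Tubb2a) and chr13:34127474-34127533 (Tubb2b), both minus strand. All 3 differences are silent, so Tubb2a and Tubb2b encode the same residues in this stretch.
Tubb2a: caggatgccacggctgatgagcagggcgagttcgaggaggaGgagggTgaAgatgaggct
Tubb2b: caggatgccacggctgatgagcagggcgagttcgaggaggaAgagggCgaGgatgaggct
Of the windows of 150 bases, the length of a read, 27.9% in the Tubb2a transcript and 20.1% in the Tubb2b transcript also stand without a mismatch in another gene. For Tuba1a the share is 54.7%, over 10 genes that include Tuba1b and Tuba1c. For Actg1 it is 43.5%, over 3 processed pseudogenes. It is 9.1% for Tmsb10, 8.5% for Krt8 and 0 for Krt18, Krt23, Vim and Tubb6. How reads that match several genes were counted is not given in the sources used here, so the division of reads between Tubb2a and Tubb2b, and between Tuba1a and its neighbours, is uncertain.

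RefSeq promoters (GRCm38.p6) were given for 8 of the 10 genes. They were searched on both strands, over 250 bases before the start, for the CCAAT box (CCAAT), the GC box (GGGCGG), the TATA box (TATAAA) and the CArG box bound by serum response factor. A CArG box was found in the Actg1 promoter alone among the 8, with its last base 81 bases before the start, and 1.5% of 32851 promoters of this length hold it. The Tubb2a promoter has a TATA box 24 bases before the start, and the Vim promoter has one 27 bases before it (12.4% of promoters hold that motif). The promoters of Actg1 and Tubb2a are shown because these are the most abundant actin and tubulin members, with every match in capitals. The Actg1 stretch (chr11:120348543-120348745, minus strand) ends 47 bases before the RefSeq start, where the GENCODE gene begins, and the Tubb2a stretch is chr13:34078009-34078258, minus strand.
Actg1: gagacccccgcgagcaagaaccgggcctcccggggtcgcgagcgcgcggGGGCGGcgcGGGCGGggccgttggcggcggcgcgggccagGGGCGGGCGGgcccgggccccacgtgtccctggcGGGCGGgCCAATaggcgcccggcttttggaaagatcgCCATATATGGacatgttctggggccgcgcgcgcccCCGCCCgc
Tubb2a: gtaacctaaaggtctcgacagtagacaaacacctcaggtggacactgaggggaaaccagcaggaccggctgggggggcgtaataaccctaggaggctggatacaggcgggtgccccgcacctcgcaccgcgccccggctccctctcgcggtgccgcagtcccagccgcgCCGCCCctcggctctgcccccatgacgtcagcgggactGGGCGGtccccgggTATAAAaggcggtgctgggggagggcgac
The Actg1 window held 6 GC boxes, of which overlapping matches run together, and the Tubb2a window 2, while 32.7% of promoters hold at least 1. A CCAAT box (33.8% of promoters) was found in the windows of Vim, Actg1 and Tuba1a. The windows of Krt8, Krt18 and Krt23 held no match to the 4 motifs.

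Of the 10 genes, 7 were higher in livers of Usp39-HKO mice (adjusted p under 0.05, edgeR quasi-likelihood test, Benjamini-Hochberg adjusted over the 14340 genes tested), namely Vim, the 4 tubulins, Actg1 and Tmsb10. The keratins did not pass. Over all genes, 22.5% passed in either direction and 10.9% were higher. The median log2 fold change was 1.16 over the 10 genes and -0.001 over all genes tested. The 10 genes were chosen with earlier results of these data known, so setting them against all genes is a description only. At the cutoff used in the study (unadjusted p under 0.05 and a log2 fold change over 0.5), 8 of the 10 were higher, with Krt23 added, against 12.1% of all genes. FPKM of all 4 Usp39-HKO mice lay above those of all 4 controls for 9 of the 10, the exception being Krt23, against 23.9% of all genes. A filter on low values (FPKM of at least 0.5 in at least 4 mice) was met by all 10. Tubb2b met it through the Usp39-HKO mice alone, so that it had to differ, and Tuba1a was below the limit in 1 control. Of the 9 genes without Tubb2b, 6 were higher, 7 passed the study's cutoff, 8 did not overlap, and the median log2 fold change was 1.05.

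These counts depend on the scaling between mice. Between-mouse factors (TMM, which centre most genes on no change) lay between 0.912 and 0.94 for controls, and between 1.012 and 1.186 for Usp39-HKO mice. Without them the median log2 fold change of all genes rose by 0.236, all 10 members passed, and 83.3% of the 4211 genes called were higher in place of 48.4% of 3225. FPKM carry no such factor, so folds between FPKM means exceed the fitted folds given here. No member had a negative fold change under any scaling, test, filter or left-out mouse that gave a value.

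**Figure D2:**
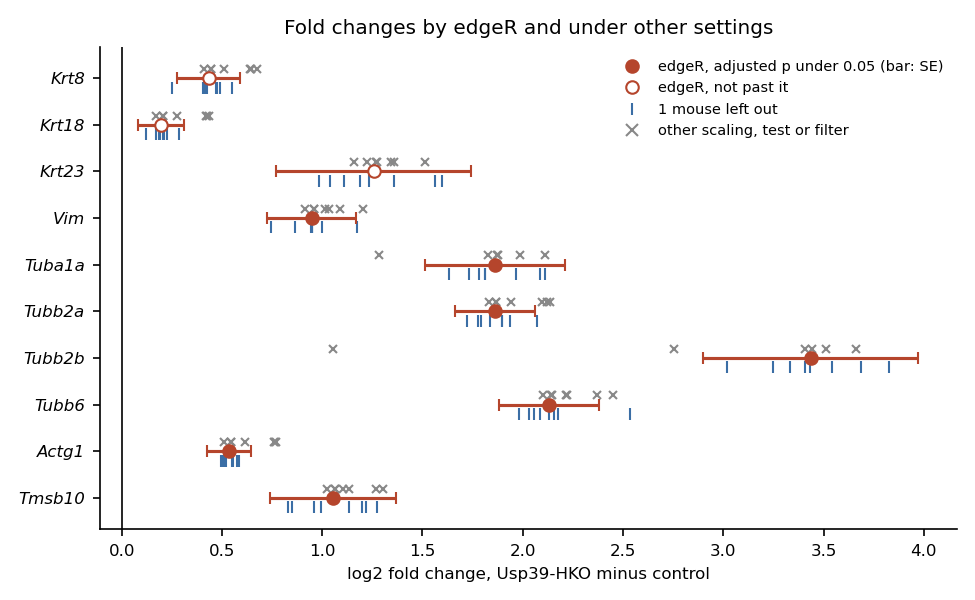
Log2 fold change (Usp39-HKO minus control) of each gene: circles are the edgeR fit with SE, filled where the adjusted p is under 0.05, ticks leave out 1 mouse at a time and crosses are other scalings, tests and filters. All marks lie to the right of 0, from 0.12 for Krt18 without 1 mouse upwards, and the low cross for Tubb2b is limma on log2(FPKM + 1).

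Krt8 and Krt18 were the most abundant keratins, and their fitted fold changes were the smallest of the 10. Krt8 (chr15:101996698-102004482, minus strand, GRCm38) is the type II and Krt18 (chr15:102028180-102032027, plus strand) the type I partner in the hepatocyte filament. FPKM of Krt8 were 100.2, 85.7, 88.2 and 89.2 in controls A468, A472, A473 and A475. In Usp39-HKO mice A469, A470, A471 and A474 they were 106.9, 134.1, 192.8 and 145.4. The groups did not overlap, but A469 stood just above the highest control and A471 well above the others. The fitted log2 fold change was 0.44 ± 0.16 (SE) with an adjusted p of 0.0674 in edgeR, and it passed without mouse A469 (0.55, adjusted p = 0.0189) and with DESeq2 (0.44, adjusted p = 0.0344).

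Krt18 FPKM were between 150.8 and 167.2 in controls and 172.2, 217.8, 243.7 and 226.9 in Usp39-HKO mice, in the same order of mice. A469 was again the lowest and close to the highest control. The log2 fold change of 0.20 ± 0.11 (SE) had an adjusted p of 0.241 in edgeR and did not pass when any single mouse was left out (0.0819 to 0.518). With the scaling left out it did pass (0.44, adjusted p = 0.0197), so its call rests on how the libraries are scaled. The ratio of Krt8 to Krt18 within a mouse, which no scaling affects, was 0.572 ± 0.056 (SD, n = 4) in controls and 0.667 ± 0.083 in Usp39-HKO mice (two-sided exact permutation test, p = 0.114).

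Krt23 (chr11:99477974-99493137, minus strand) is a type I keratin of much lower level. Its FPKM were 4.04, 1.29, 2.83 and 5.34 in controls and 2.10, 9.90, 12.05 and 14.69 in Usp39-HKO mice. A469 was below the control mean while the other 3 Usp39-HKO mice were above every control. The log2 fold change of 1.26 ± 0.49 (SE) had an adjusted p of 0.0864 in edgeR, and without A469 it was 1.60 (adjusted p = 0.00484). Of 22 other keratins looked up, 2 were expressed enough to be tested and 12 had no count in any mouse. Krt19, the keratin of bile duct cells, rose from 0.69 ± 0.25 to 2.83 ± 1.51 FPKM (SD, n = 4; log2 fold change 1.76 ± 0.40, SE, adjusted p = 0.0107 in edgeR). Krt10 had an adjusted p of 0.218, and Krt7, another duct keratin, stayed at or below 0.67 FPKM in every mouse and was not tested.

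Vimentin, the type III intermediate filament protein of mesenchymal cells, rose with wide spread between Usp39-HKO mice. Vim (chr2:13573927-13582826, plus strand) had 7.62, 7.68, 7.51 and 7.87 FPKM in controls, an SD of 0.151. In Usp39-HKO mice it had 8.89, 24.2, 15.2 and 22.2 FPKM. The controls were nearly level, A469 stood 1.16 times above their mean, and A470 stood 3.15 times above it. The log2 fold change was 0.95 ± 0.22 (SE, adjusted p = 0.0118 in edgeR), it was 1.17 without A469, and the adjusted p stayed under 0.05 without any single mouse (up to 0.0373).

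Markers of several other liver cell types also differed between the genotypes. Of 13 stellate cell and fibroblast markers, 12 were tested and 10 were higher, none lower, with a median log2 fold change of 0.89. Their summed FPKM was between 87.3 and 101.3 in controls and 138.7, 267.7, 215.0 and 308.9 in A469, A470, A471 and A474, and no marker was at 0 throughout. Of 10 cholangiocyte markers, 7 were tested and 5 were higher, and their sum, mostly Spp1, was between 35.1 and 37.8 in controls and between 74.7, in A469, and 301.8 in Usp39-HKO mice. Of 13 macrophage markers 11 were higher, of 10 endothelial markers 2 were lower, of 12 hepatocyte markers 7 were lower and of 12 proliferation markers 9 were higher. Without the scaling factors, and likewise with limma on log2(FPKM + 1), 4 endothelial markers were higher and 1 lower. Hepatocyte markers that were lower numbered 4 without the scaling factors and 3 with limma. None of the 19 lymphocyte, neutrophil, mesothelium and acinar markers tested passed in edgeR, 2 had an unadjusted p under 0.05, and DESeq2 called 1. Without A475, 8 macrophage and 4 hepatocyte markers passed. In whole liver, more cells of a type and more RNA per cell cannot be told apart, and the part of these markers in the keratin and vimentin results was not tested. Desmin (Des), the type III filament protein of stellate cells, had 1.46 ± 0.18 FPKM in controls and 2.49 ± 0.78 in Usp39-HKO mice (SD, n = 4; adjusted p = 0.0901 in edgeR). The ratio of Vim to Des was 5.32 ± 0.58 in controls and 7.14 ± 2.54 in Usp39-HKO mice, highest at 10.9 in A470 (exact permutation test, p = 0.114).

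The remaining filament proteins and linkers differed in both directions. Of all genes tested, 22.5% passed in either direction. Of 21 listed here, 12 were tested, 2 were higher and 2 lower, and their median log2 fold change was 0.03. The higher genes were periplakin (Ppl, 0.55 ± 0.12, SE, adjusted p = 0.00735 in edgeR), which links keratins to the membrane, and lamin A/C (Lmna, 0.54 ± 0.14, adjusted p = 0.0183). The lower genes were the nuclear envelope linkers Syne2 (-0.67 ± 0.15, adjusted p = 0.00879) and Syne1 (-0.47 ± 0.15, adjusted p = 0.0394). Without the scaling factors none of the list was lower and 4 were higher, and without control A475 there was 1 in each direction.

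The 4 tubulins had the largest fold changes of the 10 genes. Tubb2a (chr13:34074274-34078007, minus strand), the beta-tubulin with the most message in these livers, had 61.6, 81.2, 40.1 and 48.2 FPKM in controls. In Usp39-HKO mice it had 204, 260, 275 and 250 FPKM. Even the lowest Usp39-HKO mouse, A469, was far above the highest control. This gave a log2 fold change of 1.86 ± 0.20 (SE, adjusted p = 0.000367 in edgeR).

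Tubb6, the class V beta-tubulin, lies on chromosome 18 (67390717 to 67402749, plus strand). It had 3.80, 7.95, 2.96 and 3.70 FPKM in controls and 22.1, 21.8, 25.5 and 26.1 in Usp39-HKO mice. Control A472 stood apart at 7.95, and the Usp39-HKO mice were close together, with A469 above A470. On the log2 scale the fold change was 2.13 ± 0.25 (SE, adjusted p = 0.000591 in edgeR), and it was 2.54 without A472.

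Tuba1a (chr15:98949837-98953703, minus strand), an alpha-tubulin best known from developing neurons, was rare in control livers. It had 0.97, 1.17, 0.65 and 0.43 FPKM in controls, from 8 to 21 counts, and 1.71, 3.81, 3.72 and 4.74 in Usp39-HKO mice, from 30 to 81 counts. All Usp39-HKO mice were above the controls, with A469 the lowest (log2 fold change 1.86 ± 0.35, SE, adjusted p = 0.00414 in edgeR). Its exons overlap those of Gm49450 on the same strand over 26.2% of their length, and Gm49450 had no count in 7 of the 8 mice. How reads that fall on both genes were counted is not given, so the level of Tuba1a is uncertain.

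Tubb2b (chr13:34126748-34130466, minus strand) was close to the detection limit in controls. It had 1 to 4 counts in each control, 9 in all, and 13 to 52 in each Usp39-HKO mouse, 122 in all. In FPKM this was between 0.05 and 0.18 in controls and 0.58, 1.37, 2.38 and 1.15 in Usp39-HKO mice, without overlap. The ratio of summed counts, each over the summed totals, was 13.3, with a 95% interval of 6.76 to 29.7 (exact binomial) that covers counting error only. The fitted log2 fold change of 3.43 ± 0.54 (SE, adjusted p = 0.00185 in edgeR) depends on the prior count at such levels, and since the gene was tested only because it is high in Usp39-HKO mice, that p is no support on its own. The ratio of Tubb2a to Tubb2b within a mouse was between 461.6 and 789.4 in controls and between 116.0 and 349.9 in Usp39-HKO mice (exact permutation test, p = 0.029, adjusted p = 0.063 over the 11 ratios). It rests on those few control counts, and as a difference of log2(FPKM + 1) its direction turned (1.07 in place of -1.59).

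**Figure D3:**
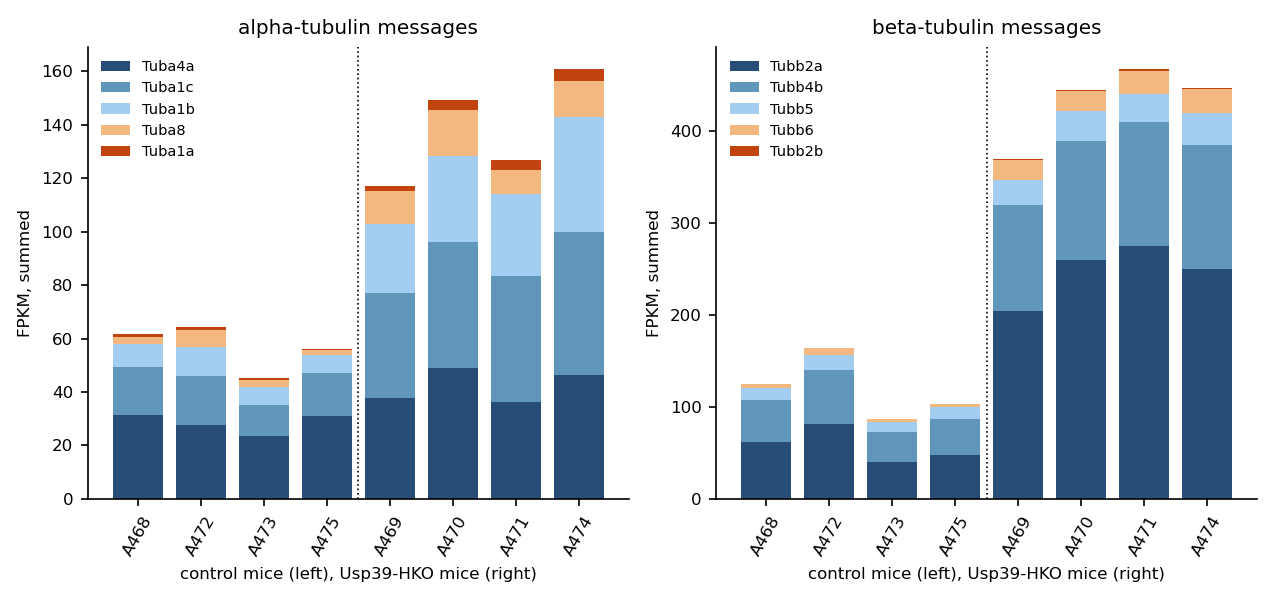
FPKM of the 5 most abundant alpha-tubulin and 5 beta-tubulin messages stacked for each mouse, controls left and Usp39-HKO mice right of the dotted line, each panel on its own axis from 0. Alpha sums reach 64.5 at most in controls and at least 117 in Usp39-HKO mice, and beta sums 165 at most in controls and at least 370 in Usp39-HKO mice.

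Other tubulins were looked up as well. Of 16 other tubulin genes, 8 were tested, 5 were higher and 1 was lower, with a median log2 fold change of 1.16. The 5 were Tuba1b (1.75 ± 0.17, SE, adjusted p = 0.000251 in edgeR), Tuba8 (1.73 ± 0.33, adjusted p = 0.00425), Tuba1c, Tubb4b (1.30 ± 0.16, adjusted p = 0.000688) and Tubb5 (1.02 ± 0.12, adjusted p = 0.000591). Tuba4a, the most abundant alpha-tubulin of control liver, was between 23.5 and 31.3 FPKM in controls and between 36.2 and 49.0 in Usp39-HKO mice, with an adjusted p of 0.0698. The gene that fell was Tubg1, which encodes gamma-tubulin of the nucleating ring complex and is no part of the dimer (-0.49 ± 0.10, adjusted p = 0.00584). Its FPKM were 11.9 ± 0.66 in controls and 9.93 ± 0.78 in Usp39-HKO mice (SD, n = 4), and it did not pass without the scaling factors. The same 5 genes rose and the same 1 fell without A469 and without A475.

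Alpha- and beta-tubulin messages were also summed. The sum over all alpha-tubulins was 56.8 ± 8.5 FPKM (SD, n = 4) in controls, and 138.6 ± 20.2 in Usp39-HKO mice. All beta-tubulins summed to 120.3 ± 33.7 and 432.9 ± 43.4 FPKM. The ratio of the sums was between 0.390 and 0.540 in controls and between 0.271 and 0.360 in Usp39-HKO mice, without overlap (two-sided exact permutation test, p = 0.029, adjusted p = 0.063 over the 11 ratios). This is the smallest p that 4 against 4 mice allow, so whether it passes adjustment depends on the other ratios. It did not pass, and unequal change of the sums was not shown. As a difference of log2(FPKM + 1) the ratio hardly moved (-0.601 in place of -0.595). Its adjusted p was then 0.045 in the exact permutation test, because 7 in place of 5 ratios shared the smallest p. Among these were Tuba1a to Tuba1b and Tubb2a to Tubb2b, whose sign the added 1 turned. That pass is no added support for unequal change of the sums.

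The shares of the isotypes are given as a description, with no test. Tubb2a made up between 45.9% and 49.4% of the beta sum in controls and between 55.2% and 58.8% in Usp39-HKO mice. Tubb6 made up 3.70% ± 0.77 (SD, n = 4) and 5.54% ± 0.48, and Tubb2b at most 0.51% in any mouse. The share of Tubb5, a widely expressed beta-tubulin, was 11.1% ± 1.3 in controls and 7.23% ± 0.58 in Usp39-HKO mice, although its level rose. Among alpha-tubulins, the share of Tuba4a was 50.4% ± 5.3 in controls and 30.6% ± 2.3 in Usp39-HKO mice, and that of Tuba1a 1.40% ± 0.45 and 2.47% ± 0.70. Within a mouse, the ratio of Tubb2a to Tubb5 was 4.34 ± 0.66 in controls and 7.94 ± 0.88 in Usp39-HKO mice, and that of Tubb6 to Tubb5 was 0.340 ± 0.106 and 0.769 ± 0.078 (exact permutation test, p = 0.029 and adjusted p = 0.063 each, so neither passed). The ratio of Tuba1a to Tuba1b was 0.095 ± 0.023 and 0.104 ± 0.026 (p = 0.486 in the exact permutation test), so a change in that ratio was not detected.

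**Figure D4:**
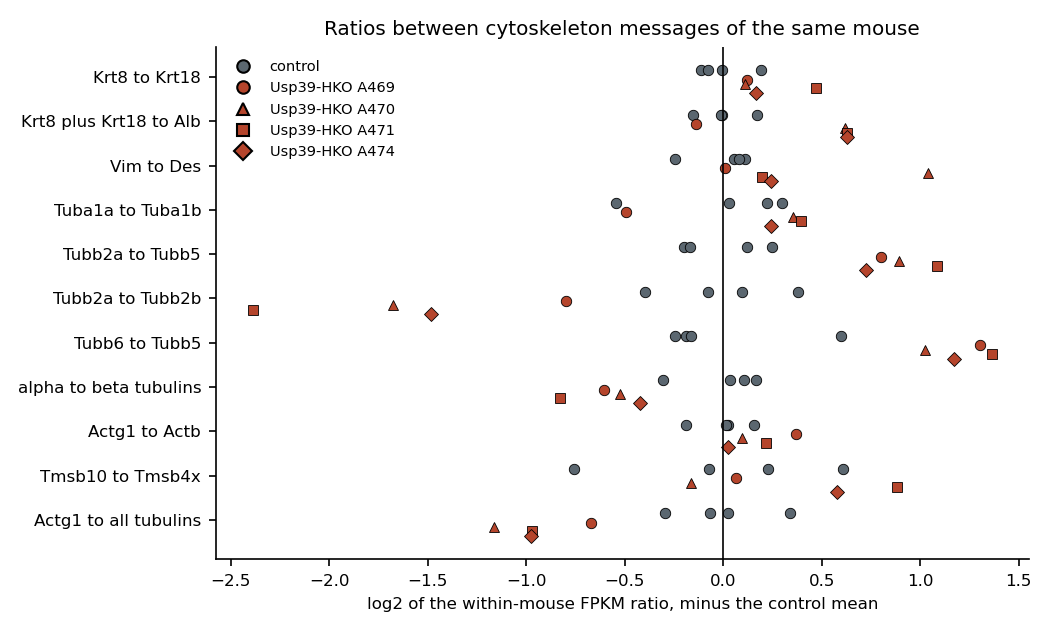
Log2 of 11 within-mouse FPKM ratios, shifted so that the control mean is 0; grey points are control mice and red points, with a symbol for each mouse, Usp39-HKO mice. The groups are apart for the 5 ratios with an exact p of 0.029 and overlap for the other 6.

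Of 26 genes of tubulin folding, autoregulation and modification, 25 were tested, none was higher and 4 were lower at an adjusted p under 0.05 in edgeR, with a median log2 fold change of -0.13. At an unadjusted p under 0.05, 1 was higher and 6 were lower, and DESeq2 called 0 and 5. Over all 14340 genes tested, 22.5% passed in either direction in edgeR and 1664 were lower. Ttc5, the reader of nascent tubulin, had a log2 fold change of 0.05 ± 0.13 (SE, adjusted p = 0.814). The 8 subunits of the CCT chaperonin, which folds tubulin and actin, lay between -0.23 and 0.18, and none passed. Atat1, the acetylase of alpha-tubulin, fell from 3.72 ± 0.47 to 2.08 ± 0.54 FPKM (SD, n = 4; log2 fold change -1.07 ± 0.17, SE, adjusted p = 0.00209 in edgeR). The glutamylase Ttll5 (-0.54 ± 0.17, adjusted p = 0.0376), the cofactor Tbcd and the deacetylase Hdac6 were also lower. Without the scaling factors, and likewise with limma on log2(FPKM + 1), Atat1 was the only gene lower and 5 genes were higher. Without A469 or without A475, 2 were lower, Atat1 among them.

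Of 24 genes listed as microtubule-associated, 20 were tested, 4 were higher and 1 was lower, with a median of 0.17. The list also held Marcks and Marcksl1. Of all genes tested, 22.5% passed in either direction. Stathmin (Stmn1), which binds tubulin dimers, rose from 3.07 ± 0.87 to 13.1 ± 0.96 FPKM (SD, n = 4; log2 fold change 1.85 ± 0.18, SE, adjusted p = 0.000232 in edgeR). Marcks, which binds actin and the membrane and is counted again among the crosslinkers below, rose by 0.53 ± 0.11 (adjusted p = 0.00594). The dynein heavy chain Dync1h1 was lower (-0.36 ± 0.11, adjusted p = 0.0353). Without the scaling factors 11 of the list were higher and none lower, and without A475 Stmn1 and Marcks alone passed.

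Actg1 (chr11:120345690-120348542, minus strand) had a smaller fold change than the tubulins, with little spread. It had 77.4, 81.6, 72.9 and 70.9 FPKM in controls and 133.3, 115.4, 132.3 and 135.1 in Usp39-HKO mice. The groups were far apart for their spread, and the lowest Usp39-HKO mouse was A470, not A469. Its log2 fold change was 0.54 ± 0.11 (SE, adjusted p = 0.00605 in edgeR) and stayed between 0.50 and 0.59 with any single mouse left out. Processed pseudogenes that share Actg1 sequence had at most 4.65 FPKM each. Actb, the other cytoplasmic actin, had 175.5 ± 19.4 FPKM in controls and 264.5 ± 30.2 in Usp39-HKO mice (SD, n = 4), without overlap, and a log2 fold change of 0.35 ± 0.12 (SE, adjusted p = 0.0527 in edgeR). The ratio of Actg1 to Actb was 0.434 ± 0.042 and 0.491 ± 0.052 (exact permutation test, p = 0.171), so unequal change of the 2 actins was not shown. The ratio of Actg1 to all tubulins was 0.441 ± 0.082 in controls and 0.228 ± 0.033 in Usp39-HKO mice, without overlap (p = 0.029 in the exact permutation test, adjusted p = 0.063).

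Tmsb10 (chr6:72957347-72958748, minus strand), a thymosin that sequesters actin monomers, had 5.97, 4.90, 3.65 and 2.41 FPKM in controls and 6.53, 7.15, 14.6 and 13.5 in Usp39-HKO mice. A469 and A470 were just above the highest control, and A471 and A474 stood far above. The log2 fold change of 1.05 ± 0.32 (SE, adjusted p = 0.0337 in edgeR) lost its call without A471, A474, A473 or A475 (adjusted p between 0.0866 and 0.0956). Tmsb4x, the major thymosin, rose from 76.8 ± 3.0 to 149.5 ± 21.9 FPKM (SD, n = 4; log2 fold change 0.72 ± 0.10, SE, adjusted p = 0.00114 in edgeR). The ratio of Tmsb10 to Tmsb4x was 0.055 ± 0.020 and 0.069 ± 0.023 (exact permutation test, p = 0.429).

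Other actin genes were mostly below the threshold. Of 14 other actins and Arp2/3 subunits, 11 were tested and only Arpc1b, a subunit of the Arp2/3 nucleator, was higher (0.73 ± 0.12, SE, adjusted p = 0.00213 in edgeR). Acta2, smooth muscle actin and a marker of activated stellate cells, had 1.22 ± 0.78 and 2.74 ± 1.27 FPKM (SD, n = 4; adjusted p = 0.167 in edgeR). Of 20 genes of monomer binding and turnover, 16 were tested and 5 were higher, led by the capping and severing proteins Capg (1.76 ± 0.32, SE, adjusted p = 0.00338 in edgeR) and Gsn (0.81 ± 0.14, adjusted p = 0.00291). Without the scaling factors 8 of the first list and 12 of the second were higher, and without A475 3 of the second. The median log2 fold change was 0.22 over the first list and 0.17 over the second. Of all genes tested, 10.9% were higher in edgeR.

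Of 32 crosslinkers, tropomyosins and myosins, 28 were tested, 9 were higher and 3 lower, with a median of 0.27. Marcks is among the 9 here as well, and 22.5% of all genes tested passed in either direction. Tagln2, a transgelin that binds actin filaments, rose from 7.63 ± 2.11 to 24.8 ± 4.6 FPKM (SD, n = 4; log2 fold change 1.45 ± 0.18, SE, adjusted p = 0.000693 in edgeR). Ezrin (Ezr), which ties actin to the membrane, rose by 1.25 ± 0.26 (adjusted p = 0.0061). The bundling protein Pls3 (-0.65 ± 0.11, adjusted p = 0.00306) and the myosin Myh14 (-0.49 ± 0.12, adjusted p = 0.0126) were lower. Without the scaling factors 14 were higher and Pls3 alone was lower, and without A475 there were 7 and 2. Of the 7 genes of serum response factor and its cofactors in the table, none passed (Srf 0.06 ± 0.19, adjusted p = 0.849 in edgeR), and 2 had an unadjusted p under 0.05. DESeq2 called none of them, limma on log2(FPKM + 1) called 1, and 3 passed without the scaling factors or without A469.

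**Figure D5:**
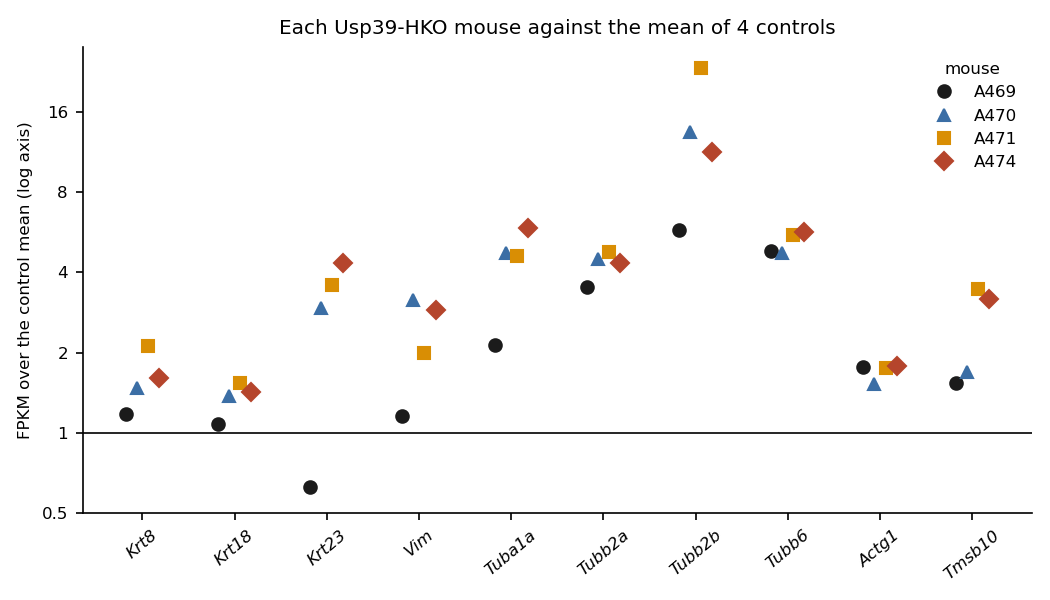
FPKM of each gene in each of the 4 Usp39-HKO mice divided by the mean of the 4 controls, on a log axis with a line at 1. Mouse A469 is the lowest for 8 of the 10 genes, at 0.62 for Krt23 and 1.16 for Vim, but at 4.81 for Tubb6 and 1.76 for Actg1 it is level with the other mice.

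The Usp39-HKO mice were not alike in all members. A469 was the lowest Usp39-HKO mouse for 8 of the 10 genes, with A470 the lowest for Tubb6 and Actg1. Against the control mean, A469 had 1.18 times the Krt8, 1.08 times the Krt18, 0.62 times the Krt23 and 1.16 times the Vim level. In the same mouse Tubb2a was at 3.53 times, Tubb6 at 4.81 times and Actg1 at 1.76 times the control mean. The other 3 mice had between 2.94 and 4.36 times the control level of Krt23 and between 1.99 and 3.15 times that of Vim. A469 also had the lowest sum of stellate cell and of cholangiocyte markers among Usp39-HKO mice, while its sum of proliferation markers, 61.6 FPKM, was close to that of A474, 60.8, against 14.3 to 22.1 in controls. It was not the lowest Usp39-HKO mouse for macrophage markers (1025 FPKM, with 981 in A470). For neutrophil markers A469 had the highest sum of all mice, 102 FPKM. Its hepatocyte marker sum, 24180 FPKM, was within the control range of 22052 to 24422, as was that of A471 (22284). The part of these markers in the order of the mice was not tested. The summed Krt8 and Krt18 level over that of albumin was 0.029 in A469 and between 0.048 and 0.049 in the other 3 Usp39-HKO mice, against 0.028 to 0.035 in controls (exact permutation test over all 8 mice, p = 0.114).

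Deviations of each mouse from its genotype's mean describe which members went together, over 8 mice that each give all values from 1 library. They correlated at 0.83 between Krt8 and Krt18, 0.86 between Krt18 and Krt23 and 0.86 between Tubb2a and Tubb6 (Pearson r of log2(FPKM + 1)). The lowest keratin pair was at 0.72 (Krt8 and Krt23) and the lowest tubulin pair at 0.27 (Tubb2b and Tubb6). Pairs across families ran from -0.40 (Vim and Actg1) to 0.91 (Krt8 and Tubb2b, the highest of all pairs). Krt18 correlated at 0.81 with Tubb2b and at 0.08 with Tubb2a, and Vim at 0.78 with Tuba1a. Over all 8 mice, the tested gene most like Tubb6 was Tubb4b (r = 0.994), followed by H2-Ab1 (0.993) and Pgs1 (0.991). Most like Vim were Mamdc2 (0.995), Eml1 and Gpx7 (0.994 each). Those most like Krt8 were Triobp (0.981), Cox19 (0.974) and Eral1 (0.972), and those most like Actg1 were Rnf6 (0.998), Dab2ip (0.995) and Hnrnpk (0.991). None of the 3 genes most like Krt8 passed the test (adjusted p of at least 0.0713 in edgeR). With 14340 genes and 8 mice, values this high are given as a description only.

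The 11 within-mouse ratios were adjusted together with the Benjamini-Hochberg method. Of these, 5 reached the smallest exact p of 0.029 (Tubb2a to Tubb5, Tubb2a to Tubb2b, Tubb6 to Tubb5, alpha to beta tubulins and Actg1 to all tubulins), with all 4 Usp39-HKO mice on 1 side of all controls. Adjusted, each was at 0.063, and none passed 0.05. Among the 5, Tubb2a to Tubb2b rests on 1 to 4 Tubb2b counts in each control. Tubb2b reached the FPKM minimum in Usp39-HKO mice alone, so that ratio is no support on its own. It was adjusted together with the others.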

How the data were processed

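Liver RNA of 8 mice (4 control, 4 Usp39-HKO; groups from the genotype label) was sequenced in paired reads of 150 bases. Per the submitters' processing notes and the methods, the authors trimmed reads (Trim Galore 0.6.1), aligned them to mm10 with HISAT2 and obtained gene counts with featureCounts. The annotation release, strand setting and treatment of reads that match several genes are not given in the sources used here. The deposited counts are raw, and the deposited FPKM were made by the authors from those counts, the deposited exon length and the total of the mouse, which recomputation gave back. Deposited columns of the authors' own DESeq2 comparison (fold changes, p-values) were not used. Repeated entries (314), which differ in symbol only, were read once.

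The members and gene lists were chosen with earlier results of these data known. edgeR 4.0.16 (R 4.3.3) was run on counts with TMM factors over the 14340 genes that reached 0.5 FPKM in 4 or more mice, the genotype being the only term, with Benjamini-Hochberg adjustment and two-sided p. The common coefficient of variation was 0.179. The SE given with edgeR fold changes is the absolute log2 fold change over the square root of the F statistic, since the test itself gives none. Alternatives were median-ratio scaling, no TMM factors, DESeq2 1.42.0, limma 3.58.1 on log2(FPKM + 1) or log2(FPKM + 0.1), no filter, a mean FPKM of at least 5, the study's cutoff and leaving out each mouse. Ratios were compared with the exact permutation test over 70 assignments. Fits were tested on simulated data. Genes named are the members, fixed partners, the 2 called genes of each list with the largest rise and the 2 with the largest fall, and the 3 genes most correlated with each of 4 members; Tuba1c, Tuba4a, Ttc5, Tbcd, Hdac6, Krt10, Srf and Spp1 were added after their values were seen. Separate libraries came from separate mice, so p-values measure the spread between mice. Counting floors and intervals cover counting error only, since PCR reads are not independent molecules. Shared sequence was found with BLAST 2.17.0 and exact windows of 150 bases in GENCODE vM21 transcripts.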

Additional observations from a re-analysis of the deposited data

Results flagged for a closer look

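In groups of 4 mice, a mouse was singled out where its distance to the nearest other mouse was above the 95% critical value of Dixon's test as a share of the range of the group, which chance gives in about 1 in 20 groups. Of 42 groups tested over the 10 members and 11 ratios, 7 were singled out. For Tubb6, control A472 had 7.95 FPKM against 2.96 to 3.80 in the other controls, and its ratio of Tubb6 to Tubb5 was 0.499 against 0.278 to 0.294. The same mouse had the lowest control ratio of Vim to Des, 4.46. For Actg1, Usp39-HKO mouse A470 had 115.4 FPKM against 132.3 to 135.1 in the others, and its ratio of Vim to Des was 10.9 against at most 6.27. Usp39-HKO mouse A471 had a Krt8 to Krt18 ratio of 0.791 against at most 0.641. Usp39-HKO mouse A469 had a ratio of Krt8 plus Krt18 to Alb of 0.0286 against at least 0.0483 in the other 3. Causes were not tested.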

How the results depend on the processing

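Every member kept a positive fold change under every alternative that gave a value. Tuba1a and Tubb2b have no value at a mean FPKM of at least 5, which they do not reach. That filter gave 1595 calls of 6672 genes in place of 3225 of 14340, by construction over fewer genes. Leaving out 1 mouse gave 1931 (without control A473) to 3510 calls, with 2043 without A475 and 2094 without A474, and 6 to 9 members called in place of 7. Members called were 7 with median-ratio scaling, 10 without TMM factors, 8 with DESeq2, 9 with limma at either pseudocount, 8 with no filter, 6 with the stricter filter and 8 at the study's cutoff. With limma on log2(FPKM + 1), 82.6% of calls were higher, with 48.4% in edgeR. Of ratios, 7 in place of 0 passed as differences of log2(FPKM + 1) (adjusted p = 0.045 each in the exact permutation test). They passed because 7 in place of 5 shared the smallest p. There the differences for Tuba1a to Tuba1b (-0.59 in place of 0.13) and Tubb2a to Tubb2b (1.07 in place of -1.59) turned sign, since the added 1 exceeds most control values of Tuba1a and Tubb2b. With 1 mouse left out, none of the 5 ratios at the smallest p of the exact permutation test changed direction. No paired analysis was possible because the groups share no replicate numbers. Depth limits Tubb2b, with 9 counts over the 4 controls, most.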
